A study of Mus musculus with 6 samples.

Results

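Eukaryotic translation initiation factors are the proteins that bring the ribosome, the initiator tRNA and the start codon of an mRNA together. Their transcripts were measured here in mouse THY1-positive spermatogonia labelled Ddx20 knockout or control. The genes were taken by name: all protein-coding genes of the deposited table whose symbol begins with Eif and a digit, with at least 30 reads summed over the 6 libraries. This gave 53 of the 22579 genes listed. GENCODE M21 holds 55 such symbols. Of the other two, Eif4ebp3 fell short of the threshold with 9 reads, and Eif4e1b was not analysed here. The members nearest above the threshold were Eif2ak2 with 248 reads and Eif3j2 with 249, so no other gene lay close to it. The symbol rule also brings in relatives that are not subunits of an initiation factor, such as the eIF2 kinases, the eIF4E-binding proteins and Eif4a3, the helicase of the exon junction complex.

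The series holds 3 libraries labelled control and 3 labelled Ddx20 knockout, each from about 1000 cells collected on day 4. Sorting on THY1, a cell surface protein, enriches the pool that contains spermatogonial stem cells, and DDX20 (Gemin3) is an RNA helicase of the SMN complex, which assembles splicing particles. The knockout libraries also carry the short name cKO, but the labels used here name neither a Cre line nor the deleted exons, strain, or number of animals pooled, and no allele or agent shared with the controls is given. The RNA was copied from an oligo-dT primer and amplified by SMART-seq2 without molecular identifiers. The labels do not tie libraries to animals, so each p-value reflects the spread among these libraries alone, and that spread may be technical.

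Initiation proceeds in steps that order the results below. eIF2, with its GTP, carries the initiator tRNA to the small ribosomal subunit, eIF1 and eIF1A keep that subunit scanning until a start codon is found, and eIF3 is the large scaffold that holds the complex together. The eIF4 proteins bind the mRNA cap and unwind the leader, eIF5 triggers GTP hydrolysis by eIF2, and eIF5B joins the large subunit. eIF2B recharges eIF2 with GTP, and 4 kinases block that recharging under stress by phosphorylating the alpha subunit of eIF2. Spermatogonia rely on close control of translation, and Eif2s3y, a Y-linked copy of the eIF2 gamma subunit, is known to be needed for spermatogonial proliferation in the mouse.

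Several members come as paralogous pairs, and the comparison between copies rests on reads that can be assigned to one of them. The sequences below show stretches of 60 coding bases, from the GENCODE M21 transcripts on GRCm38 (the mm10 assembly), for 3 pairs that the results turn on. Capitals mark the bases that differ between the members of a pair. For Eif5a and Eif5a2, coding bases 119 to 178 are shown, which hold the lysine codon (bases 148 to 150, codon 50 in both genes) whose product is converted to hypusine, the modified residue by which eIF5A acts on the ribosome. This stretch differs at 8 bases.
Eif5a: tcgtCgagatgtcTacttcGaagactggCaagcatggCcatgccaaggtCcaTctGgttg
Eif5a2: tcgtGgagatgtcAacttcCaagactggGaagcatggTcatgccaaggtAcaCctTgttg
For Eif1 and Eif1b the gap-free stretch with the most differences is shown, coding bases 250 to 309, which differs at 17 bases.
Eif1: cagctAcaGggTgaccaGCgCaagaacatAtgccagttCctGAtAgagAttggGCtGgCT
Eif1b: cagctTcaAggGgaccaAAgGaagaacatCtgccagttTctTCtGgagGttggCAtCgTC
For the X-linked and Y-linked genes of eIF2 gamma the same choice gave coding bases 601 to 660, with 14 differing bases.
Eif2s3x: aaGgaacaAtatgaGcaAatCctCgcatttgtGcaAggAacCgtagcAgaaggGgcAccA
Eif2s3y: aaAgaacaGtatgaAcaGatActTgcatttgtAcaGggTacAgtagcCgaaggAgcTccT

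Over their whole coding sequences, Eif5a and Eif5a2 were identical at 72.7% of aligned bases, Eif1 and Eif1b at 81.3%, and Eif2s3x and Eif2s3y at 86.3%. The longest run of identical bases was 14, 25 and 34 in these pairs, well under the 150 bp of a read. Other copies are closer. Eif3j1 and Eif3j2 shared 784 consecutive coding bases, so their counts cannot be told apart with confidence. The pseudogene Gm2223 matches 1350 coding bases of Eif2s3x at 100% identity. Eif1 matches 13 other annotated genes at 95% identity or more over at least 150 bases. Among them are the pseudogenes Eif1-ps1 and Eif1-ps2 and the protein-coding gene Emd, listed with 432 reads. The deposited table holds only 1 processed pseudogene in all, so reads that such pseudogenes took or shared are not known.

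Ddx20 itself had 668, 383 and 531 reads in controls against 128, 168 and 119 in knockouts, a log2 fold change of −1.89 ± 0.26 (SE, n = 3 per group, edgeR quasi-likelihood adjusted p = 0.0118, or 0.0541 with knockouts 1 and 2 as 1 library). Total counts ran from 8428871 to 11893287 in controls and from 11656130 to 12497967 in knockouts. Control 1 had the fewest reads and stood apart: its reads came from genes of longer summed exon length (mean 4830 bases per read outside mitochondrial genes, against 4146 and 4308 in controls 2 and 3 and 3925 to 3934 in the knockouts). Mitochondrially encoded transcripts took 14.01% to 16.9% of counts in controls and 19.8% to 20.1% in knockouts. Knockouts 1 and 2 differed from each other by a mean chi-square of 1.78 per gene, where sampling noise alone gives 1 and other pairs gave 11.96 to 104. They exceed sampling noise and were entered separately, but SDs and p-values that treat all 3 knockouts as independent may be too small. Undifferentiated spermatogonia markers were all listed. Their summed level was 1124 to 1206 CPM (reads relative to the TMM-scaled library size) in controls and 854 to 899 CPM in knockouts. Of these 13 genes 4 fell and none rose, where 2.8% of all genes were called lower and 2.03% higher. Thy1 itself stood at only 9.01 ± 4.17 and 6.48 ± 0.800 CPM (SD, n = 3). The 8 general germ cell markers summed to 3724 to 4954 CPM in controls and 5103 to 5598 CPM in knockouts, with Mael called higher and the others not called. The sums follow the abundant genes, and the median log2 fold change of this list was −0.10. Ddx4, Dazl, Tex101 and Mael lay above 0, while Tdrd1 (−0.57), Nanos3 (−0.56), Dnd1 (−0.46) and Tdrd9 (−0.39) lay below it. Summed markers of peritubular myoid cells (7 genes) ranged from 142 to 175 CPM in controls and from 340 to 457 CPM in knockouts, those of Sertoli cells (10 genes) from 66.9 to 84.3 and from 146 to 184 CPM, and those of macrophages (8 genes) from 852 to 1908 and from 2071 to 2931 CPM. Of these, 3 of the myoid genes and 3 of the Sertoli genes rose, beside 2.03% of all genes. The myoid genes that rose were Acta2 (60.8 ± 11.1 and 182 ± 39.2 CPM), Myl9 (83.6 ± 10.8 and 208 ± 27.1) and Actg2 (0.962 ± 0.452 and 10.1 ± 3.19). Acta2 and Myl9 made up most of the myoid sum. Myh11, Des and Cnn1 were not called (log2 fold changes 0.16, 0.84 and 1.66), with Myh11 and Cnn1 overlapping between the groups, and Tagln was not tested. The Sertoli genes that rose were Clu (30.6 ± 6.45 and 90.3 ± 14.9 CPM), Inha (9.49 ± 2.05 and 32.9 ± 4.91) and Cldn11 (0.357 ± 0.196 and 3.69 ± 1.20). The other 5 Sertoli genes tested were not called. Their log2 fold changes were −0.68 (Sox9), −0.32 (Rhox5), 0.22 (Gata4), 0.47 (Wt1) and 0.56 (Amhr2). Rhox5 had 126, 120 and 148 reads in controls and 168, 0 and 136 in knockouts, so its negative value rests on knockout 2. No macrophage marker was called, and without Lyz2 the macrophage sums overlapped, at 548 to 1002 and 930 to 1166 CPM, with Csf1r at −0.09 and Mrc1 at −0.31 in log2 fold change. For T lymphocytes (8 genes) the ranges were 53.04 to 70.6 and 79.4 to 104 CPM. Of these genes 2 rose, Cd3g and Lck (log2 fold changes 1.24 and 1.68, edgeR adjusted p 0.0320 and 0.0497). The other 6 were not called, with Cd8a and Trac below 0. The summed ranges of Leydig and endothelial cells (7 genes each) overlapped between the groups. No marker in these lists was at 0 over all libraries, and the fewest reads were those of Amh (7) and Tagln (13). The part of other cells in the results that follow was not tested. In such bulk libraries, fewer cells of a type and less RNA per cell cannot be told apart.

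Most initiation factor transcripts did not pass the test between knockout and control. A gene was called where its edgeR quasi-likelihood p, adjusted by Benjamini-Hochberg across the 14766 genes tested, was under 0.05. Eif1 rose, Eif5b and Eif5a2 fell, and 50 of the 53 were not called. The 3 calls are 5.66% of the members, beside 4.83% of all genes (2.03% higher, 2.8% lower), so the share called is near the background. At an unadjusted p under 0.05 there were 13 members (6 higher, 7 lower), beside 24.1% of all genes. The median log2 fold change of the members was 0.08, beside 0.01 for all genes, and 31 of 53 values were above 0, beside 50.3% of all genes. The median absolute log2 fold change was 0.34, beside 0.42 for all genes, and 1 member, Eif2ak3, reached an absolute value of 1, where 14.9% of all genes did. In 28 of 53 members the 3 knockout libraries did not overlap the 3 controls, 15 higher and 13 lower, beside 32.6% of all genes (16.8% higher, 15.8% lower). All 3 calls were lost by edgeR when knockouts 1 and 2 were counted as 1 library (no member called beside 0.00649% of all genes, and 8 with an unadjusted p under 0.05 beside 14.0%) and when any single knockout was left out (beside 0.0325%, 0.065% and 0.0194% of all genes). With the pair as 1 library, DESeq2 called 4 members, 3 higher and 1 lower. It called 465 of 15406 genes, which is 5.45% of the 8535 genes that it gave an adjusted p. In that setting limma-voom called 2 members, both higher (beside 3.28% of all 15406 genes). With all 6 libraries DESeq2 called 7 (beside 11.1%) and limma-voom 10 (beside 19.5%).

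**Figure D1:**
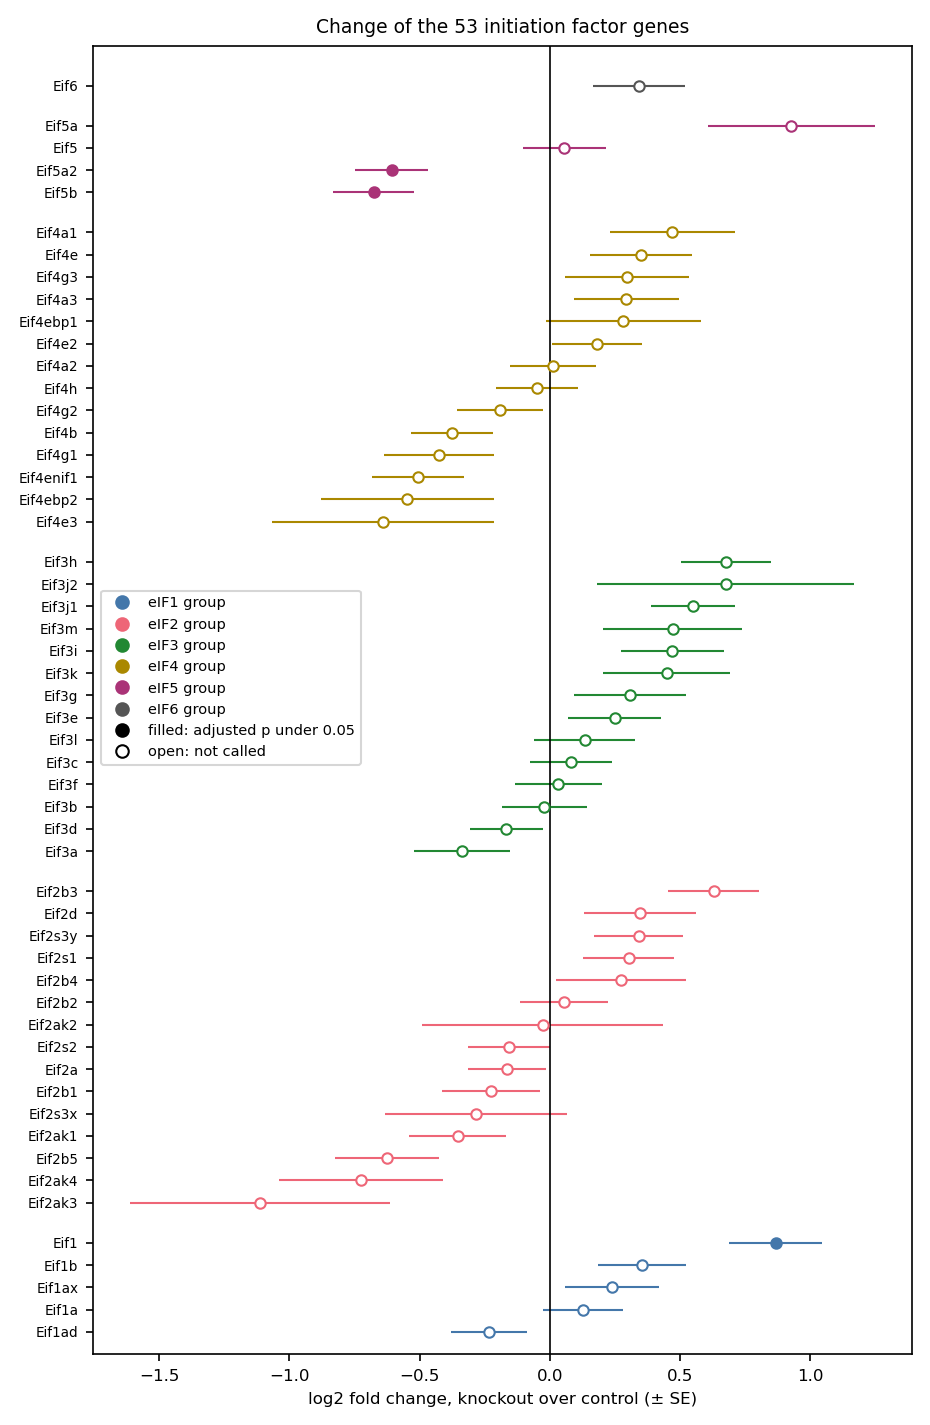
Log2 fold change of knockout over control for each of the 53 initiation factor genes (x axis; bars, SE from the edgeR fit), ordered within the numbered groups. Filled points are the 3 called genes, Eif1 above 0 and Eif5a2 and Eif5b below it; the eIF3 group lies mostly above 0 and the 4 eIF2 kinases all lie at or below it.

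Among the scanning factors, Eif1 had the clearest change of all members. Its product guards against initiation at wrong codons. Eif1 (ENSMUSG00000035530, chromosome 11, 100319885 to 100322096, plus strand) stood at 290, 398 and 369 CPM in controls 1 to 3 and at 648, 645 and 632 CPM in knockouts 1 to 3. Every knockout library was thus above every control, and the knockouts lay within a narrow band. The mean rose from 352 ± 55.7 to 642 ± 8.38 CPM (SD, n = 3), 1.82-fold, with a log2 fold change of 0.87 ± 0.18 (SE) and an edgeR adjusted p of 0.0278. Its log2 fold change ran from 0.62 (library size scaling, or removal of the length and GC trend) to 0.97 (without control 2) over the alternatives. The edgeR adjusted p without control 3 was 0.0514. With knockouts 1 and 2 as 1 library edgeR did not call Eif1. In Eif1b, the close paralog printed above, the groups were separate as well, at 182, 244 and 233 CPM against 273, 263 and 307 CPM, but the gene was not called (log2 fold change 0.35, edgeR adjusted p 0.229). Of the 2 genes for eIF1A, the partner of eIF1 in scanning, the X-linked Eif1ax had a log2 fold change of 0.24 and Eif1a one of 0.13. Eif1ad, which encodes a protein with an eIF1A-like domain, had a log2 fold change of −0.23. None of these 3 was called.

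No gene of the eIF2 group passed the test. Over its 15 members the median log2 fold change was −0.16. At an unadjusted edgeR p under 0.05 there were 1 higher and 3 lower values, beside 24.1% of all genes. DESeq2 called 1 of the 15 and limma-voom 2, in the settings with all 6 libraries, beside 11.1% and 19.5% of all genes. For the alpha subunit, which carries the regulatory phosphorylation site, Eif2s1 stood at 218 ± 37.5 CPM in controls against 269 ± 26.5 CPM in knockouts (SD, n = 3), and for the beta subunit Eif2s2 at 412 ± 29.4 and 369 ± 18.5 CPM. The Y-linked gamma gene Eif2s3y (chromosome Y, 1010543 to 1028847) had 66.9, 64.0 and 80.6 CPM in controls and 80.2, 81.5 and 106 CPM in knockouts, which overlap. Its X-linked counterpart Eif2s3x was listed much lower, at 5.83, 9.11 and 11.96 CPM in controls and 6.41, 6.98 and 8.73 CPM in knockouts. With a pseudogene identical to 1350 of its 1419 coding bases, the listed level of Eif2s3x is uncertain.

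Among the 5 subunits of eIF2B, the exchange factor that recharges eIF2, the lowest and highest values belonged to the epsilon and gamma subunits, which together form its catalytic part. Eif2b3 (gamma) had 69.6, 105 and 99.5 CPM in controls against 143, 139 and 143 CPM in knockouts. Eif2b5 (epsilon) had 69.9, 49.8 and 47.2 CPM in controls against 39.4, 37.6 and 31.1 CPM in knockouts. Neither overlapped between the groups, in opposite directions, and neither passed (log2 fold changes 0.63 ± 0.17 and −0.63 ± 0.20 (SE), edgeR adjusted p 0.0636 and 0.0924). Within a library the ratio of Eif2b5 to Eif2b3 reads was 1.00, 0.473 and 0.475 in controls against 0.275, 0.270 and 0.218 in knockouts, a ratio chosen after its values were seen. Eif2b3 passed with DESeq2 (adjusted p 0.0150), with limma-voom (0.00742), without control 1 (edgeR adjusted p 0.0421), after removal of the length and GC trend (0.0460) and with a stricter filter (0.0385). It did not pass with knockouts 1 and 2 as 1 library (edgeR 0.238, DESeq2 0.110, limma-voom 0.101), without any single knockout (edgeR 0.244, 0.227 and 0.149) or with library size scaling (log2 fold change 0.39, edgeR adjusted p 0.134). The other 3 subunits, Eif2b1, Eif2b2 and Eif2b4, had log2 fold changes of −0.22, 0.05 and 0.27.

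The 4 eIF2 kinase genes were expressed at a low level, and in 3 of them the knockout libraries all lay below the controls, as in 15.8% of all genes. None was called. Eif2ak3 (PERK, the kinase activated by stress of the endoplasmic reticulum) had 88, 90 and 112 reads in controls and 23, 24 and 83 in knockouts. The 3 controls agreed closely, at 8.41 to 8.59 CPM, while knockouts 1 and 2, the pair that differed little in all genes, stood at 2.14 and 2.18 CPM and knockout 3 at 7.47 CPM. Its log2 fold change of −1.11 ± 0.50 (SE) was not called by edgeR (adjusted p 0.203), but by limma-voom with sample weights (log2 fold change −1.89, adjusted p 0.000591). With the pair as 1 library it was −0.81 by edgeR (adjusted p 0.546). Eif2ak4 (GCN2, which senses uncharged tRNA) stood at 12.04, 9.97 and 10.04 CPM in controls, above the knockouts at 7.06, 7.53 and 4.77 CPM (log2 fold change −0.73, edgeR adjusted p 0.188). Eif2ak1 (HRI, the heme-regulated kinase) had 27.9, 26.4 and 27.5 CPM in controls against 20.7, 21.5 and 21.8 CPM in knockouts (−0.35, 0.277). Eif2ak2 (PKR, activated by double-stranded RNA) overlapped between the groups (−0.03). The summed level of the 4 kinases was 50.2 ± 0.703 CPM in controls and 35.4 ± 2.61 CPM in knockouts (SD, n = 3). Eif2a and Eif2d, which act in alternative initiation pathways, had log2 fold changes of −0.16 and 0.34.

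Most eIF3 subunit transcripts had values above 0, but none of the 14 was called. Their median log2 fold change was 0.28, and 11 of 14 were above 0, beside 50.3% of all genes. An unadjusted edgeR p under 0.05 was found for 3, all higher, beside 24.1% of all genes in either direction. DESeq2 called 2 and limma-voom 3 in the settings with all 6 libraries, beside 11.1% and 19.5% of all genes. Eif3h, a subunit of the octamer that forms the core of the complex, had 468, 451 and 363 CPM in controls against 673, 674 and 702 CPM in knockouts. These groups were well apart, and the log2 fold change of 0.68 ± 0.17 (SE) lay just outside the threshold (edgeR adjusted p 0.0516). It passed with DESeq2 size factors (0.0485), without a filter (0.0431), with a stricter filter (0.0353) and without control 1 (0.0219) by edgeR, and with DESeq2 (0.000451) and limma-voom (0.000663), which also held with the pair as 1 library (0.0227 and 0.0382). With library size scaling its log2 fold change was 0.41 (edgeR adjusted p 0.122), and after removal of the length and GC trend 0.33 (0.335). Eif3j1, for the loosely bound j subunit, had 77.3, 109 and 99.1 CPM in controls and 138, 140 and 141 CPM in knockouts (log2 fold change 0.55, edgeR adjusted p 0.0762). Its exons share 1107 bases with Spg11 on the other strand, whose level was 9.70 ± 2.37 CPM in controls and 7.85 ± 0.416 CPM in knockouts. Eif3i had a log2 fold change of 0.47 (edgeR adjusted p 0.178). The lowest value was that of Eif3a, the largest subunit, which had 436, 313 and 292 CPM in controls against 274, 271 and 278 CPM in knockouts (log2 fold change −0.34, edgeR adjusted p 0.292). The 8 octamer genes (Eif3a, Eif3c, Eif3e, Eif3f, Eif3h, Eif3k, Eif3l and Eif3m) had a median of 0.19 and the 6 others one of 0.39. Those 6 include both Eif3j1 and Eif3j2, whose counts cannot be told apart with confidence. The group median was 0.03 with library size scaling, where the median of all genes moved from 0.01 to −0.26, and 0.13 without control 1.

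The cap-binding and unwinding factors had no called gene. Over the 14 eIF4 members the median log2 fold change was −0.02, and values above and below 0 were equally frequent, at 7 each. DESeq2 called none and limma-voom called 1, Eif4enif1, in the settings with all 6 libraries, beside 11.1% and 19.5% of all genes. Eif4e, the cap-binding protein, had 353, 468 and 523 CPM in controls against 533, 530 and 651 CPM in knockouts, and Eif4a1, the main helicase, had 178, 337 and 346 CPM against 378, 381 and 434 CPM. Neither overlapped between the groups and neither was called (edgeR adjusted p 0.309 and 0.264). Control 1 was the lowest library for both. Of the scaffolds, Eif4g1 had 84.3, 53.5 and 49.1 CPM in controls and 45.3, 46.1 and 47.9 CPM in knockouts, with a log2 fold change of −0.42. Eif4g2, which encodes a relative without the eIF4E-binding site, had one of −0.19 and Eif4g3 one of 0.30. Eif4b, a cofactor of the helicase, and Eif4enif1, which shuttles eIF4E and takes part in its repression, had unadjusted p values of 0.0369 and 0.0156 with log2 fold changes of −0.38 and −0.50. Among the inhibitors of eIF4E, Eif4ebp1 ranged from 111 CPM in control 1 to 295 CPM in control 2 and from 238 to 313 CPM in knockouts, and Eif4ebp2 from 19.8 to 50.6 CPM and from 15.9 to 26.6 CPM. Both overlapped between the groups, and their log2 fold changes of 0.28 and −0.55 were not called. Eif4ebp3 had 0, 4 and 1 reads in controls and 1, 0 and 3 in knockouts, too few for a comparison.

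The small eIF5 group held 2 of the 3 calls, both lower, beside 2.8% of all genes. The median log2 fold change of its 4 genes was −0.28. Eif5b, for the GTPase of subunit joining (ENSMUSG00000026083, chromosome 1, 37998010 to 38055579, plus strand), had 327, 305 and 269 CPM in controls against 177, 184 and 203 CPM in knockouts. The mean fell from 300 ± 29.5 to 188 ± 13.2 CPM (SD, n = 3), with a log2 fold change of −0.68 ± 0.16 (SE) and an edgeR adjusted p of 0.0383. Its exons share 1643 bases with Rev1 on the other strand, whose level was 15.04 ± 2.82 CPM in controls and 21.1 ± 1.04 CPM in knockouts, far below that of Eif5b. After removal of the length and GC trend the log2 fold change of Eif5b was −0.50 with an edgeR adjusted p of 0.0619. Without control 2 the adjusted p was 0.0759. With knockouts 1 and 2 as 1 library Eif5b was called neither by edgeR nor by limma-voom.

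Eif5a and Eif5a2 encode 2 forms of the hypusinated factor that helps ribosomes elongate and terminate. Eif5a2 (ENSMUSG00000050192, chromosome 3, 28781276 to 28798846, plus strand) had 179, 158 and 160 CPM in controls against 110, 108 and 109 CPM in knockouts. The mean fell from 166 ± 11.6 to 109 ± 1.15 CPM (SD, n = 3), with a log2 fold change of −0.61 ± 0.14 (SE) and an edgeR adjusted p of 0.0383. Without control 2 the adjusted p was 0.0656, and with the pair of knockouts as 1 library it was 0.222 by edgeR, 0.0628 by DESeq2 and 0.0746 by limma-voom. Eif5a, the more abundant form (chromosome 11, 69916714 to 69921958, minus strand), was higher in each knockout, at 389, 1067 and 934 CPM in controls, against 1422, 1424 and 1697 CPM in knockouts. Control 1 was far below the other libraries, and the log2 fold change of 0.93 ± 0.32 (SE) was not called (edgeR adjusted p 0.114). Without control 1 it was 0.60 with an edgeR adjusted p of 0.0423, and by DESeq2 with all libraries it was 0.93 with an adjusted p of 0.0137. Eif5, the GTPase activator of eIF2, overlapped between the groups, at 389 ± 13.6 CPM in controls against 404 ± 38.2 CPM in knockouts. Eif6, which keeps the large subunit from joining too early and is the sole member of its group, had 93.1, 125 and 144 CPM in controls against 157, 148 and 153 CPM in knockouts (log2 fold change 0.34, edgeR adjusted p 0.264).

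**Figure D2:**
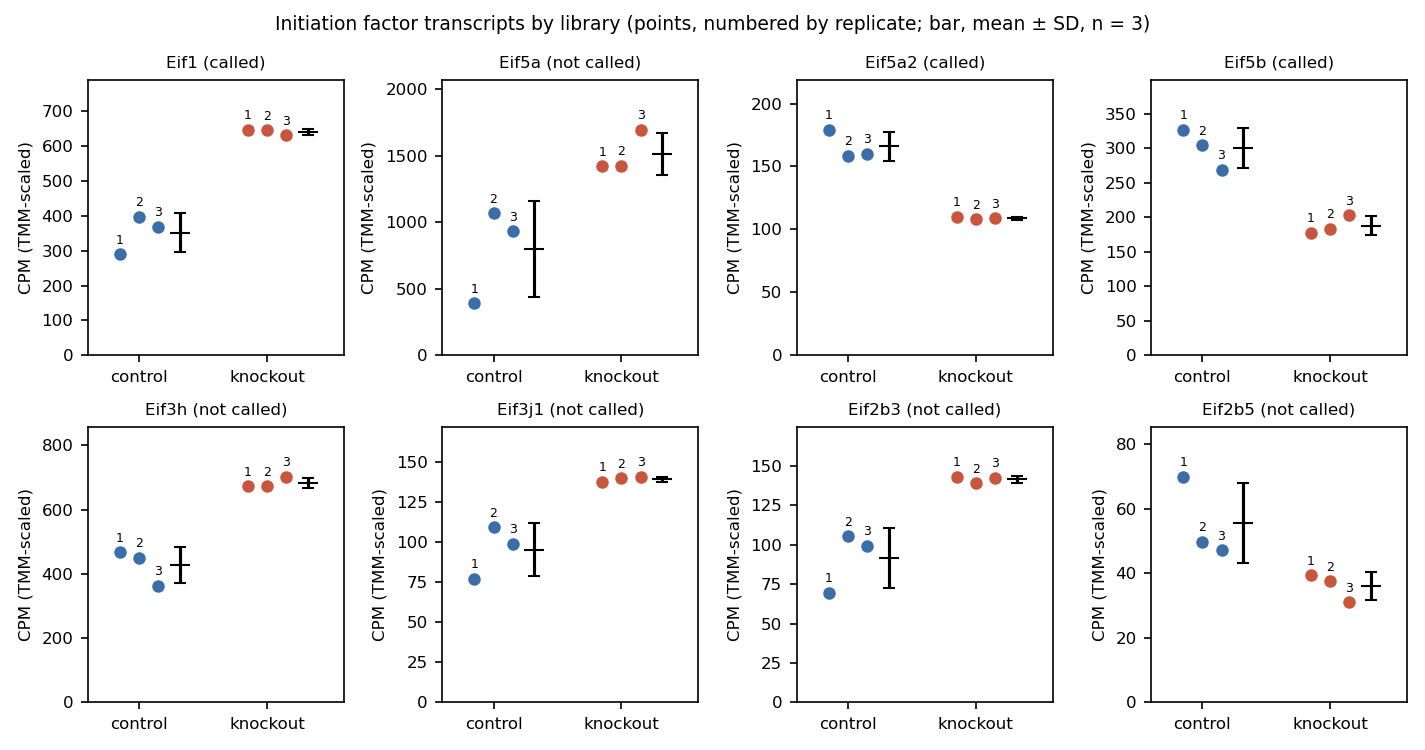
Level in each library (points, labelled by replicate number; y axis, TMM-scaled CPM from 0) of 8 initiation factor genes, with the mean and SD of each group (n = 3). The groups are separate in all 8 panels, knockouts 1 and 2 lie close together throughout, and control 1 is far below the others for Eif5a (389 CPM).

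Summed over all 53 genes, initiation factor transcripts took 10860 ± 1382 CPM in controls and 13041 ± 641 CPM in knockouts (SD, n = 3), a ratio of 1.20. Control 1 had the lowest sum, 9274 CPM, and the other controls 11808 and 11498 CPM, against 12670 to 13781 CPM in the knockouts. By group the ratio was 1.34 for the eIF5 group, 1.32 for eIF1, 1.27 for eIF6, 1.23 for eIF3, 1.08 for eIF4 and 1.04 for eIF2. The ratio of the eIF5 group rested on Eif5a: without it the sums were 911, 843 and 812 CPM in controls and 675, 669 and 759 CPM in knockouts, a ratio of 0.820. Over all members without Eif5a the ratio was 1.15, a choice made, like the one before, after seeing the data. With library size scaling the log2 ratio over all members was 0.01 in place of 0.26, and the groups overlapped.

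The level of a transcript varied far more between members than between genotypes. Per kilobase of exon, the highest levels in controls were those of Eif5a (335 ± 151 CPM per kb), Eif3h (265 ± 34.9) and Eif3g (253 ± 63.6; SD, n = 3). These 3 overlapped each other in the control libraries. The lowest were Eif2ak2 (0.725 ± 0.240 CPM per kb), Eif4g3 (1.15 ± 0.0566) and Eif3j2 (1.20 ± 0.304). Transcripts of subunits of the same complex were not equally abundant: 13 eIF3 genes, Eif3j2 left out, spanned 16.2-fold in controls and 18.8-fold in knockouts. In eIF3 the order in controls ran Eif3h, Eif3g, Eif3k, Eif3m, Eif3c, Eif3i, Eif3f, Eif3b, Eif3l, Eif3a, Eif3e, Eif3d, Eif3j1. Only Eif3i, Eif3e and Eif3d of the 13 lay above the next gene in every control, together with Eif3j1 above Eif3j2. Among the eIF2 subunits Eif2s2 stood at 60.9 ± 4.35 CPM per kb, Eif2s1 at 44.0 ± 7.57, Eif2s3y at 16.9 ± 2.14 and Eif2s3x at 2.35 ± 0.805 in controls (SD, n = 3). Of the cap-binding genes Eif4e was the most abundant, at 74.6 ± 14.5 CPM per kb, against 18.5 ± 3.50 for Eif4e2 and 2.08 ± 0.641 for Eif4e3. Summed exon length counts all annotated exons, so genes with long alternative exons appear lower than they are.

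**Figure D3:**
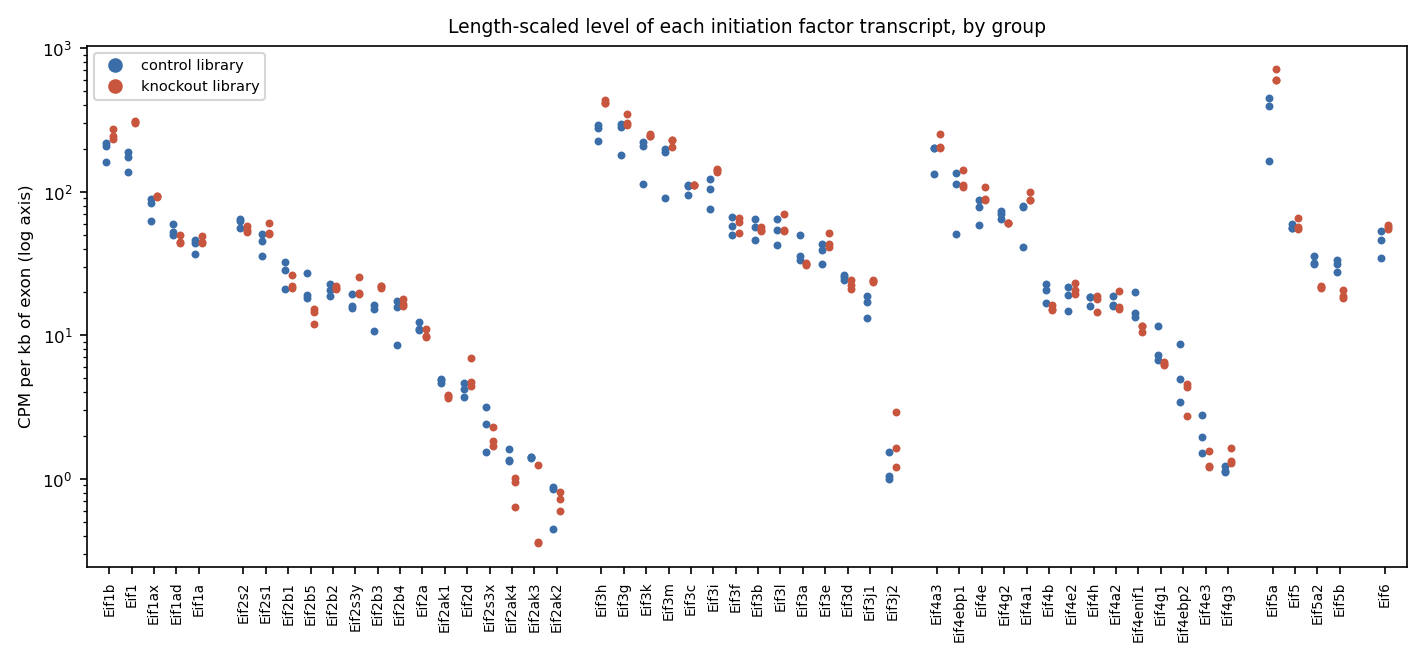
Level per kilobase of exon (y axis, CPM per kb, log scale) of each of the 53 genes in the 3 control and 3 knockout libraries, by group and in falling order of the control mean. Levels span from 0.725 CPM per kb (Eif2ak2) to 335 CPM per kb (Eif5a) in control means, and control and knockout points of the same gene mostly lie close together.

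Ratios of paralogs within a library do not depend on scaling, and 9 pairs were compared. The ratios were not adjusted for exon length, which differs within pairs (5027 bases for Eif5a2 and 2377 for Eif5a). In 5 of them the knockout libraries did not overlap the controls, where single genes did not overlap in 32.6% of cases. No such share was computed for other pairs of genes. The 5 pairs include genes described above as separate, such as Eif1, Eif5a2 and Eif4e, and do not add independent results. With 3 libraries against 3 the exact permutation test cannot go below a two-sided p of 0.10, and each of the 5 had this p (0.18 adjusted over the 9 pairs). For Eif1b to Eif1 the ratio of reads was 0.629, 0.614 and 0.632 in controls against 0.421, 0.408 and 0.485 in knockouts. The 3 controls were nearly equal here, and each knockout was lower, by 0.52 on the log2 scale in the mean. For Eif5a2 to Eif5a the ratio was 0.461, 0.148 and 0.172 in controls against 0.0774, 0.0757 and 0.0641 in knockouts, a mean log2 difference of −1.65. Control 1 stood apart, yet controls 2 and 3 also lay above each knockout. For Eif4g3 to Eif4g1 it was 0.160, 0.232 and 0.251 against 0.316, 0.317 and 0.376, a log2 difference of 0.67. For Eif2s3y to Eif2s3x it was 11.5, 7.02 and 6.74 against 12.5, 11.7 and 12.2 (log2 difference 0.57), where control 1 lay close to the knockouts. Eif2s3x had only 61, 96 and 156 reads in controls and 69, 77 and 97 in knockouts. Its listed level is uncertain because of its pseudogene, and so is this ratio. For Eif4e2 to Eif4e the ratio was 0.315, 0.305 and 0.312 against 0.290, 0.276 and 0.264 (−0.17). The pairs Eif4a2 to Eif4a1, Eif4g2 to Eif4g1, Eif1a to Eif1ax and Eif4ebp2 to Eif4ebp1 overlapped between the groups, with exact permutation p values of 0.20, 0.70, 0.20 and 0.60. In the first and last of these, control 1 had the highest ratio, 0.562 and 0.455, against 0.248 and 0.0794 in control 3.

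**Figure D4:**
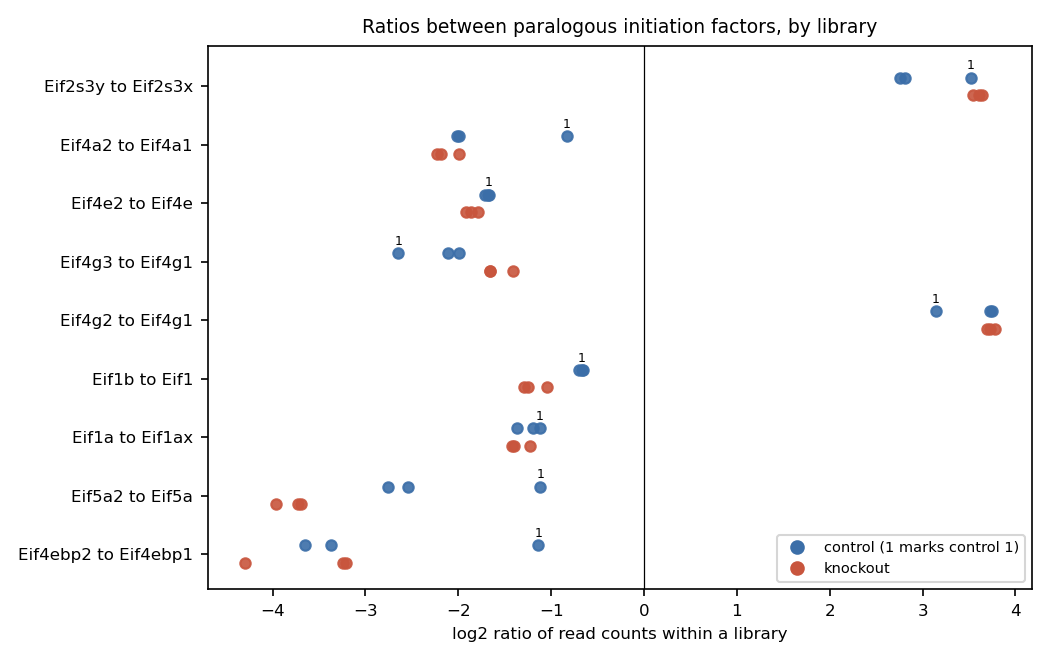
Log2 ratio of read counts between paralogous initiation factors (x axis) in each control and knockout library, for 9 pairs. Controls and knockouts are apart for 5 pairs, among them Eif1b to Eif1 and Eif5a2 to Eif5a, and control 1, marked with its number, lies apart from controls 2 and 3 in most pairs.

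Among the members, longer transcripts tended to have lower log2 fold changes. Over the 53 genes the log2 fold change and log2 exon length had a Pearson r of −0.39 and a Spearman rho of −0.38, beside −0.21 and −0.27 over all genes tested. All these points share the same 6 libraries. The 18 shortest members (1125 to 2891 bases of exon) had a median log2 fold change of 0.30 with 14 above 0, and the 17 longest (5830 to 11063 bases) one of −0.16 with 8 above 0. With the trend with length and GC content removed from each library, the medians were 0.07 and −0.00381, and r was −0.05. Of the called genes, Eif1 has 2098 bases of exon, Eif5a2 5027 and Eif5b 9753. In that setting Eif1 (log2 fold change 0.62, edgeR adjusted p 0.0367) and Eif5a2 (−0.59, 0.0348) were called, Eif5b was not, and Eif2b3 and Eif3j1 were called in addition. The share of called members was then 4 of 53, beside 4.35% of all genes. Log2 fold change and log2 mean CPM had a Pearson r of 0.47 over the members, and of −0.21 over all genes.

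**Figure D5:**
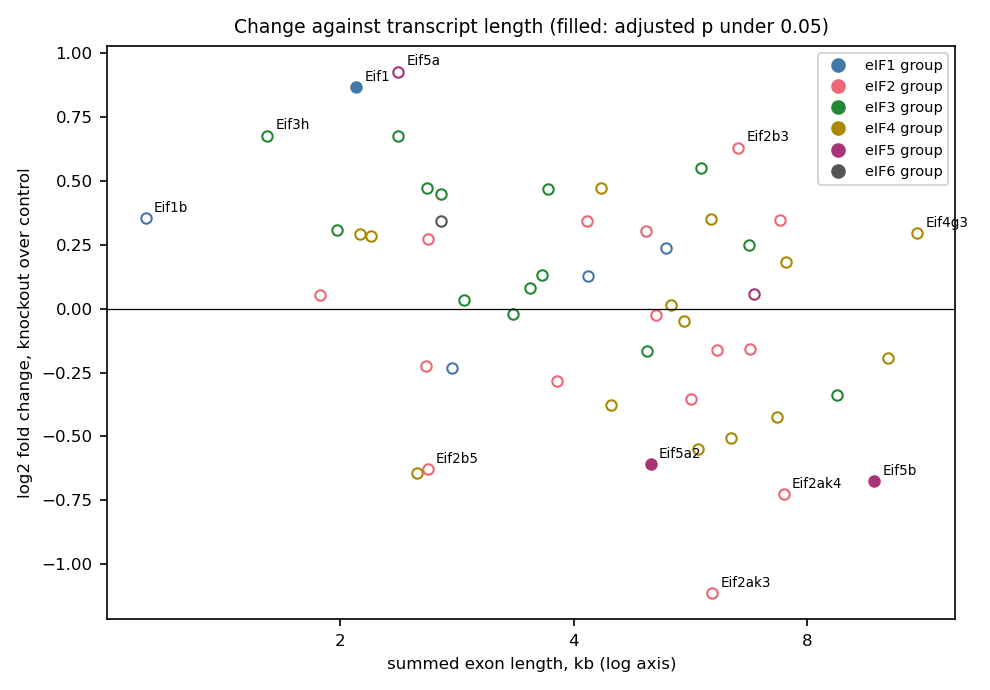
Log2 fold change (y axis) against summed exon length (x axis, kb, log scale) for the 53 members, coloured by group, with the 3 called genes filled. Short members such as Eif1 and Eif3h lie above 0, and long members such as Eif5b and Eif2ak4 below it, with exceptions such as Eif2b3.

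Among partners and regulators of initiation outside the name rule, calls were all decreases. Of 31 tested genes 4 fell and 27 did not pass, beside 2.8% of all genes called lower, with a median log2 fold change of −0.28. Pdcd4, an inhibitor of the eIF4A helicase, fell from 145 ± 13.6 to 67.1 ± 11.9 CPM (SD, n = 3; log2 fold change −1.11, edgeR adjusted p 0.0119). Larp1, which represses mRNAs with terminal oligopyrimidine starts under control of mTOR, fell from 59.0 ± 21.5 to 27.4 ± 4.27 CPM (−1.11, 0.0412). Larp4, whose product binds poly(A) tails, fell by 0.92 and the X-linked helicase gene Ddx3x by 0.63 on the log2 scale. Of 19 genes listed for elongation and termination 2 fell, the release factor gene Gspt1 by 0.81 and Lsm14a by 0.79 (log2). Lsm14a encodes an RNA granule protein and is not itself an elongation or termination factor. Eef1a1, which delivers tRNA during elongation, stood at 4102 ± 717 and 6734 ± 100 CPM and was not called (log2 fold change 0.72, edgeR adjusted p 0.0890). Dhps, the enzyme that starts hypusine synthesis on eIF5A, had 42.2 ± 14.1 and 62.4 ± 2.83 CPM (0.56, 0.179).

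In the signalling that controls initiation, calls were few, and over all genes 2.03% were called higher and 2.8% lower. Of 19 tested genes of the mTOR pathway, which acts on eIF4E through its binding proteins, Sesn2, a stress-induced inhibitor of mTOR complex 1, rose by 2.04 and Rragd, a GTPase gene of amino acid sensing, fell by 1.24 on the log2 scale, with a list median of −0.14. Atf4, whose mRNA is translated more when eIF2 is phosphorylated, overlapped between the groups, at 70.1 ± 19.97 and 69.6 ± 4.12 CPM. Of 22 tested genes counted as its targets or as markers of the integrated stress response 3 rose and 1 fell, with a median of 0.01. Asns, for asparagine synthetase, rose from 21.9 ± 1.94 to 63.8 ± 10.3 CPM (log2 fold change 1.54, edgeR adjusted p 0.0101), Sesn2 is in this list too, and Slc7a3, an amino acid transporter gene, had no read in any control and 23, 27 and 18 reads in the knockouts. Aars, for alanyl-tRNA synthetase, fell by 0.87 on the log2 scale. Ddit3 stood at 33.0 ± 6.27 and 26.4 ± 1.30 CPM, Psat1 at 113 ± 15.4 and 117 ± 7.13 CPM and Phgdh at 145 ± 17.2 and 155 ± 9.24 CPM (SD, n = 3), and none of these was called. All calls in these lists rest on the same 3 knockout libraries, and with knockouts 1 and 2 as 1 library edgeR called 1 gene in the whole table.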

How the data were processed

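RNA of 3 control and 3 Ddx20 knockout libraries was analysed. The authors deposited whole-number read counts per Ensembl gene, with sum and mean columns of their own that were not tested; the deposited sum column equals the summed counts in all 22579 genes, and it served for the 30-read rule. Per the submitters' processing notes Trimmomatic 0.39 was used, with STAR 2.7.5c and the mm10 build, and also StringTie 2.1.7, edgeR and DESeq2; their roles, the counter, annotation release, strand setting and filter are not given in sources used here. Reads of overlapping genes cannot be assigned to a strand. PCR copies can be counted repeatedly.

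Symbols, exon lengths and transcripts came from GENCODE M21 (22562 identifiers matched). Counts were tested with the edgeR 4.0.16 quasi-likelihood test (R 4.3.3, TMM, filterByExpr, genotype alone, two-sided), after a trial on simulated data. SE is the log2 fold change divided by the root of F. DESeq2 1.42.0 and limma 3.58.1 voom were alternatives, with others on scaling, filters, mitochondrial genes, length and GC trend (lowess span 0.3), blocking and left-out libraries. Counting knockouts 1 and 2 as 1 library is their rounded mean; its use with DESeq2 and limma-voom was added after seeing the data. Coding sequences were aligned with Biopython 1.88 and BLAST 2.17.0.

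The members and lists were chosen with earlier results of these data known. Named genes were Ddx20, all members called or with an unadjusted p under 0.05, fixed core members of each complex, the extremes of eIF3, eIF2B and the level order, and called genes of 4 lists. Other names were chosen after their values were seen.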

Additional observations from a re-analysis of the deposited data

How the results depend on the processing

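The count of all genes called, 713, was 1378 with library size scaling (226 higher, 1152 lower, 83.6% lower against 57.9%), 1641 by DESeq2, 2882 by limma-voom, 1 with knockouts 1 and 2 as 1 library (2150 at an unadjusted p under 0.05), 465 in that setting by DESeq2, and 3 to 839 with 1 library left out. The count of called initiation factors, 3, was 6 with the stricter filter, 7 by DESeq2, 10 by limma-voom, 1 with the replicate block, 0 with the pair as 1 library and 0 to 6 with 1 library left out (0 without each knockout, 1 without control 2, 6 without control 1). The count of separate paralog pairs, 5, was 5 to 7. The cause of these shifts was not tested.

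Values that changed sign were all uncalled. Eif2ak2 (−0.03) became 0.020 with the replicate block, 0.026 with the pair as 1 library by edgeR and 0.026 by DESeq2, 0.051 with the length and GC trend removed, and ranged from −0.28 to 0.13 with 1 library left out. With library size scaling Eif4a2 became −0.27, Eif5 −0.22 and the log2 ratios of summed CPM −0.21 for eIF2 and −0.14 for eIF4, and that of eIF5 was −0.29 without Eif5a; Eif4a2 was −0.073 by limma-voom. With 1 library left out Eif4a2 ranged from −0.14 to 0.096, Eif5 from −0.027 to 0.11, Eif4ebp1 from −0.036 to 0.57, and the Eif4g2 to Eif4g1 difference from −0.0057 to 0.30.

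Same-numbered controls and knockouts did not deviate together (correlations −0.00423, 0.00884 and 0.00648, with controls 2 and 3 but not control 1 correlating best with their own number), and no such correlation passed 0.1, so the libraries were taken to share only a number. With the replicate block edgeR called 683 genes and, of the members, Eif1 alone (adjusted p 0.0334; Eif5b 0.0543, Eif5a2 0.0526). Members of under 10 CPM, such as Eif2ak3 and Eif2s3x, rest on few reads.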
